A study of Homo sapiens with 12 samples.

Results

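The interleukin-1 family and its receptors were followed in FaDu cells, an established human head and neck squamous cell carcinoma line, with and without STING. The 9 members were chosen by name and role, with earlier results of these data known. They were the agonists IL1A and IL1B, the antagonist IL1RN, the related cytokines IL18, IL36G and IL33, and the receptor chains IL1R1, IL1R2 and IL1RAP. All 9 were among the 58288 genes of the table, and 8 of them were among the 15973 genes that were expressed highly enough to be tested. IL33 was not. RNA-Seq was done on 4 groups of 3 libraries: unirradiated STING WT cells, unirradiated STING KO cells, and the same STING WT and STING KO cells after 4 daily fractions of 2 Gy. The cells of this study carry Cas9 and a guide RNA delivered by lentivirus, a non-targeting guide in the STING WT control and a guide to STING in the STING KO cells, and were selected with puromycin. Whether the STING KO cells were a clone or a pool, how long after the last fraction RNA was taken, and whether the libraries came from separate cultures are not given in the sources used here, so p-values measure the spread between libraries, which may be technical.

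Interleukin-1 alpha and interleukin-1 beta are made as precursors and bind the same receptor, in which IL1R1 recognises the ligand and IL1RAP, the accessory chain, is needed to start signalling through MyD88 and the IRAK kinases to NF-kB and MAP kinases. IL1RN, the receptor antagonist, occupies IL1R1 without recruiting the accessory chain, and IL1R2 is a decoy receptor that binds ligand but lacks the signalling domain. IL-1 beta and IL-18 are cut to their active forms by caspase-1, whereas the IL-1 alpha precursor is already active and is known as an alarmin of keratinocytes and other squamous epithelia. STING, encoded by the gene listed as TMEM173, is an adaptor that links cytosolic DNA sensing to type I interferon and NF-kB.

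TMEM173 was listed at 21.1 to 23.5 transcripts per 1000000 (TPM, a value corrected for transcript length) in the unirradiated STING WT libraries and at 5.18 to 6.96 TPM in the unirradiated STING KO libraries. After radiation its range was 21.4 to 26.1 TPM in STING WT and 6.35 to 7.41 TPM in STING KO cells, so the groups did not overlap in either condition. All 12 squamous epithelial markers looked up were at 26.0 TPM or higher in every library, led by KRT5 at up to 4839 TPM, and their summed level was 9843 to 9976 TPM in unirradiated STING WT, 9746 to 11384 in unirradiated STING KO, 9303 to 9753 in irradiated STING WT and 8573 to 9585 in irradiated STING KO libraries. Of 10 myeloid markers, 2 reached 1 TPM, led by CD14 at 2.62 to 4.35 TPM, and AIF1 and TYROBP were at 0 in all 12 libraries. Of 8 fibroblast markers 1 reached 1 TPM, COL1A1 at 6.34 to 9.23 TPM over all libraries. Of 6 endothelial markers 2 did, led by CDH5 at 8.51 to 19.8 TPM. Between 14860 and 15292 genes reached 1 TPM in a library, and Pearson's r across genes, which are not independent replicates, was 0.983 to 0.987 between libraries of the same group. TPM keep no read depth, so no counting error could be given.

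The members covered a wide range of levels. IL1B was the most abundant with a mean of 170.0 TPM over the 12 libraries, and 5.82% of the tested genes had a higher mean. IL1RN followed at 82.5 TPM, IL1A at 79.3 TPM, IL18 at 46.2 TPM and IL1RAP at 23.0 TPM. The remaining receptor chains and IL36G were low: IL36G had a mean of 3.03 TPM, IL1R2 of 3.00 TPM and IL1R1 of 1.65 TPM, and 86.1% of the tested genes had a higher mean than IL1R1. IL33 had 0.13 TPM. In this order IL1B exceeded IL1RN in 12 of 12 libraries. IL1RN and IL1A were not separated, with IL1RN higher in 8 of 12 libraries and overlapping ranges in every group. IL1A exceeded IL18 in 12 of 12 libraries, IL18 exceeded IL1RAP in 12 of 12, and IL1RAP exceeded IL36G in 12 of 12. IL36G and IL1R2 changed places, with IL36G higher in 6 of 12 libraries, and IL1R2 was above IL1R1 in 9 of 12.

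**Figure D1:**
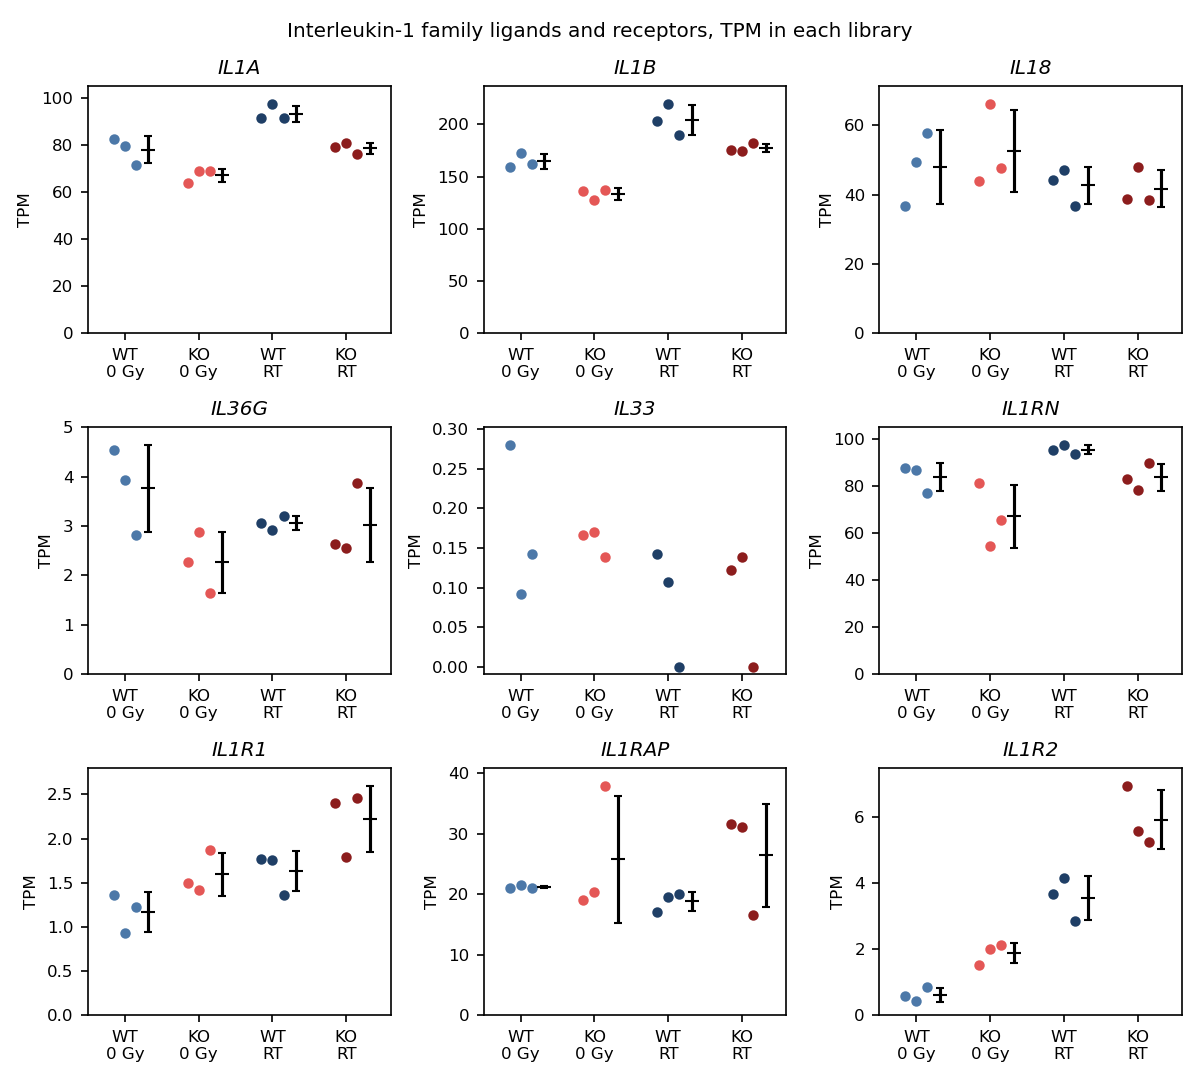
Level of the 9 members in each library (vertical axes, TPM, a separate scale for each gene) in the 4 groups (RT, after radiation). Points are single libraries and bars are the mean ± SD of 3 libraries, which are left out for IL33. IL1A and IL1B were lower in STING KO than in STING WT cells in both conditions, IL1R2 went from a mean of 0.618 TPM in unirradiated STING WT to 5.93 TPM in irradiated STING KO cells, and IL1RAP was spread widely within the STING KO groups.

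The first question was how the family differed between STING KO and STING WT cells. Each genotype came from a single cell line. Here and below, an effect of STING loss therefore cannot be told apart from other differences between the lines. In unirradiated cells 2 of the 8 tested members passed the threshold of an adjusted p of 0.05 (limma on log2(TPM + 1), Benjamini-Hochberg over all tested genes), IL1B being lower and IL1R2 higher in STING KO cells. Over all 15973 genes 1.73% passed in this comparison. In irradiated cells 0 of 8 members passed by limma, against 3.59% of all genes. Of the 8, 3 had an unadjusted p under 0.05. The share of all genes under that unadjusted threshold was not worked out, so counts of this kind, here and below, have no background. The libraries of the groups did not overlap for 4 members in unirradiated cells and 5 in irradiated cells, against 20.6% and 24.1% of all genes. IL1A and IL1B were the lower members and IL1R1 and IL1R2 the higher ones both times, with IL1RN lower as well after radiation. The median log2 fold change of the 8 members was -0.04 in unirradiated and -0.03 in irradiated cells, beside -0.02 in each for all tested genes.

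The second question was how fractionated radiation affected it. In STING WT cells 3 of 8 members passed, IL1A, IL1B and IL1R2, all higher after radiation, against 3.74% of all genes. In STING KO cells 2 of 8 passed, IL1B and IL1R2, both higher, against 3.69% of all genes. Libraries did not overlap for 6 members in STING WT cells and 3 in STING KO cells, against 24.8% and 24.3% of all genes. In STING WT cells these were IL1A, IL1B, IL1RN, IL1R1 and IL1R2, which were higher, and IL1RAP, which was lower. In STING KO cells they were IL1A, IL1B and IL1R2, all higher. The median log2 fold change of the members was 0.22 in STING WT and 0.31 in STING KO cells, beside 0.02 in each for all tested genes. Each group of libraries enters a pair of these comparisons, so they are not independent of one another. In bulk RNA, fewer cells with a transcript and less of it per cell cannot be told apart.

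**Figure D2:**
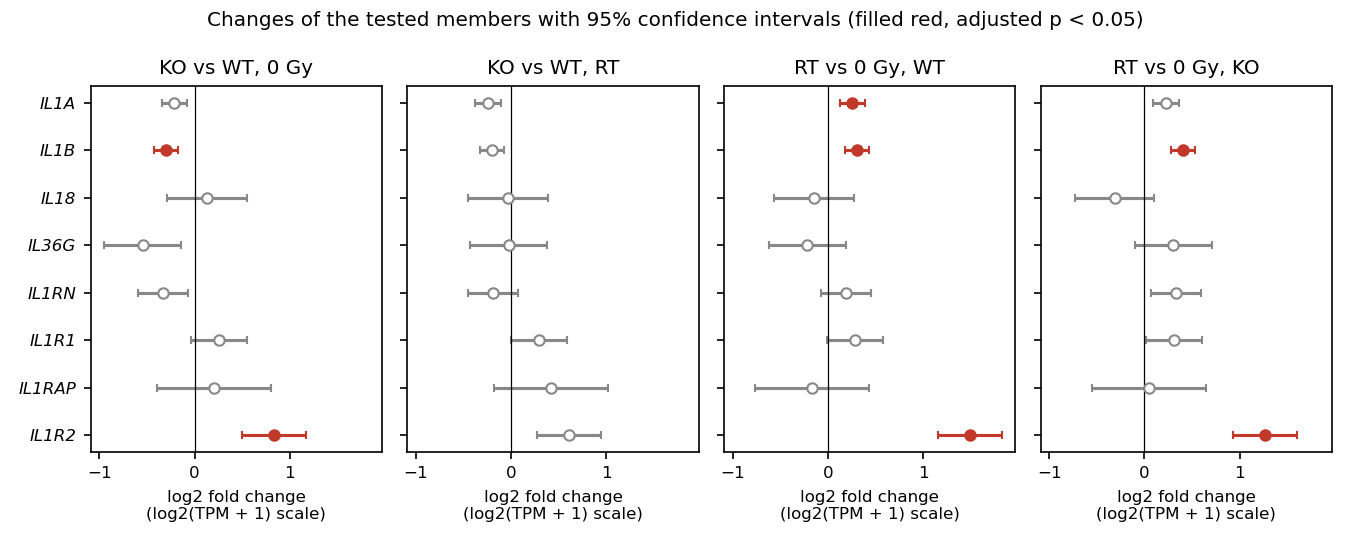
Log2 fold change of each tested member on the log2(TPM + 1) scale (horizontal axes) for the KO effect in unirradiated and irradiated cells and the radiation effect in STING WT and STING KO cells. Points are limma estimates, lines are 95% confidence intervals and filled points passed an adjusted p of 0.05. IL1R2 lay farthest to the right in all 4 comparisons, from 0.61 to 1.49.

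IL1A, the alarmin form, was listed at 82.8, 79.6 and 71.7 TPM in the unirradiated STING WT libraries and at 63.8, 68.8 and 68.9 TPM in the unirradiated STING KO libraries. After radiation it was at 91.3, 97.4 and 91.5 TPM in STING WT and 79.1, 80.7 and 76.2 TPM in STING KO cells. Every STING KO library was below every STING WT library of the same condition, and every irradiated library was above every unirradiated one of the same genotype. With radiation IL1A rose by 0.26 on the log2 scale (SE 0.060, adjusted p = 0.044) in STING WT cells, its mean going to 93.4 ± 3.4 TPM (SD, n = 3). This call was lost in 10 of the 12 fits that left out a single library (adjusted p 0.055 to 0.14); it was kept only without replicate 1 of either unirradiated group. In STING KO cells the change was 0.23 (95% confidence interval 0.093 to 0.36, adjusted p = 0.070). The difference between STING KO and STING WT was -0.21 (-0.35 to -0.078, adjusted p = 0.14) in unirradiated and -0.24 (-0.38 to -0.11, adjusted p = 0.056) in irradiated cells, neither of which passed. Without replicate 3 of the unirradiated STING WT cells, the latter was at an adjusted p of 0.032 and the radiation change in STING KO cells at 0.042 by limma.

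IL1B, the inflammasome-dependent form, had 159, 173 and 162 TPM in unirradiated STING WT and 136, 127 and 137 TPM in unirradiated STING KO libraries. The irradiated libraries had 204, 219 and 190 TPM in STING WT and 176, 174 and 182 TPM in STING KO cells. The 4 groups were fully separated, with unirradiated STING KO lowest and irradiated STING WT highest. IL1B was 18.9% lower in STING KO than in STING WT cells without radiation (mean 134 ± 5.5 against 165 ± 7.2 TPM, SD, n = 3), or -0.30 on the log2 scale (SE 0.058, adjusted p = 0.027). The call was lost when any of the 6 unirradiated libraries was left out (adjusted p 0.053 to 0.12). It was also lost with moderation without a trend (adjusted p = 0.057), with a replicate block (0.076) and with only the libraries compared (0.095). In irradiated cells the difference was -0.20 (95% confidence interval -0.33 to -0.073, adjusted p = 0.094). Radiation raised IL1B by 0.31 (SE 0.058, adjusted p = 0.019) in STING WT and by 0.41 (SE 0.058, adjusted p = 0.0048) in STING KO cells. The STING KO value passed in every alternative run, and the STING WT value was lost without replicates 1 or 3 of unirradiated STING WT or replicates 1 or 2 of irradiated STING WT cells (adjusted p 0.059 to 0.070). The STING WT value was also lost with a replicate block (adjusted p = 0.052) and with only the libraries compared (0.10).

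IL1A (chr2:112773915-112784590, minus strand, GRCh38) and IL1B (chr2:112829751-112836903, minus strand) lie on the same chromosome as IL36G (chr2:112973203-112985665, plus strand) and IL1RN (chr2:113107214-113134016, plus strand). IL1R2 (chr2:101991844-102028544, plus strand) precedes IL1R1 (chr2:102064544-102179874, plus strand) by position on that chromosome. RefSeq promoter windows on GRCh38.p14, from 250 bases before to 50 after an annotated start, were given for 8 of the 9 members (16 windows; several members have more than 1 start). They were searched on both strands for an AP-1 motif spelled TGANTCA, a C/EBP motif spelled TTGCNNAA, a TATA box spelled TATAAA, a kappaB motif (GGGA, then any 4 bases, then CC) and an interferon-stimulated response element (ISRE, with GAAA on each side of any 2 bases), and overlapping matches were all kept. These motifs occurred in 7.71%, 10.5%, 11.5%, 25.6% and 3.57% of the 35116 promoter windows of all genes. The stretches printed show matches by the starts of the 3 members that passed a test and of the antagonist, with the match in capitals. TATA matches, and an AP-1 match by another IL1RN start, are left out. They are matches of letters, not sites shown to be used.
IL1A, AP-1 at -12 from the start, chr2:112784487-112784516, minus strand: gcgaagaagacTGACTCAggcttaagctgc
IL1A, AP-1 at 38 from the same start, chr2:112784444-112784473, minus strand: agtcatttcattggcgttTGAGTCAgcaaa
IL1B, C/EBP at -215, chr2:112836904-112837029, minus strand: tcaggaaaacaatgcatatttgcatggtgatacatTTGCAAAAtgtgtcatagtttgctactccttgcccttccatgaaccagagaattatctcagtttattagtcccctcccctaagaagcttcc
IL1RN, ISRE at -122, chr2:113127357-113127386, plus strand: caatgaagggGAAATAGAAAtcttaatttt
IL1R2, kappaB at -124, chr2:101991826-101991855, plus strand: tgcagcctggGGGTGCTCCCcgtgaggagg

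IL1RN, which encodes the antagonist in secreted and intracellular forms that a gene-level value cannot separate, was listed at 87.6, 86.8 and 76.8 TPM in unirradiated STING WT and at 81.2, 54.6 and 65.4 TPM in unirradiated STING KO libraries. In irradiated cells it was at 95.3, 97.3 and 93.5 TPM in STING WT and at 83.0, 78.4 and 89.8 TPM in STING KO libraries. The unirradiated STING KO libraries were the most scattered, and the first of them overlapped the STING WT range. No comparison passed: the KO difference was -0.33 (95% confidence interval -0.60 to -0.068, adjusted p = 0.23) without and -0.19 (-0.45 to 0.076, adjusted p = 0.47) with radiation, and the radiation change was 0.19 (-0.076 to 0.45, adjusted p = 0.46) in STING WT and 0.33 (0.068 to 0.60, adjusted p = 0.17) in STING KO cells. These values turned on the scattered group: without replicate 1 of the unirradiated STING KO cells, the KO difference was -0.48 (adjusted p = 0.041) and the radiation change in STING KO cells was 0.48 (adjusted p = 0.034), and without replicate 2 they were -0.20 (adjusted p = 0.47) and 0.20 (adjusted p = 0.38) by limma.

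Antagonist and agonists were also set against each other within each library, a measure chosen after the values were seen. The ratio of IL1RN to the sum of IL1A and IL1B in TPM was 0.345 ± 0.017 in unirradiated STING WT, 0.334 ± 0.066 in unirradiated STING KO, 0.321 ± 0.013 in irradiated STING WT and 0.327 ± 0.020 in irradiated STING KO cells (SD, n = 3). The groups overlapped in all 4 comparisons (two-sided exact permutation p 0.2 to 1; 3 against 3 libraries cannot give a p under 0.1). The sum of the agonists itself was 243 ± 9.5, 201 ± 5.2, 298 ± 18 and 256 ± 1.9 TPM in the same order of groups, and did not overlap in any of the 4 comparisons (exact permutation p = 0.1 in each).

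IL18, an interferon-gamma-inducing cytokine that is also released after caspase-1 cleavage, was listed at 36.7, 49.4 and 57.7 TPM in unirradiated STING WT, 44.0, 66.1 and 47.7 TPM in unirradiated STING KO, 44.2, 47.1 and 36.7 TPM in irradiated STING WT and 38.8, 47.9 and 38.4 TPM in irradiated STING KO libraries. All of these ranges overlapped. The log2 fold changes lay between -0.31 and 0.13 with adjusted p from 0.43 to 0.95, and the interval of the largest of them, for radiation in STING KO cells, ran from -0.73 to 0.10.

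IL36G, an epithelial cytokine of the IL-36 branch, had 4.54, 3.93 and 2.81 TPM in unirradiated STING WT and 2.26, 2.88 and 1.64 TPM in unirradiated STING KO libraries. After radiation it had 3.06, 2.92 and 3.19 TPM in STING WT and 2.63, 2.56 and 3.88 TPM in STING KO cells. The unirradiated groups overlapped by a single pair of libraries, 2.81 against 2.88 TPM. The KO difference was -0.55 (95% confidence interval -0.95 to -0.14, adjusted p = 0.20) without radiation and -0.03 (-0.43 to 0.38, adjusted p = 0.96) with it, and radiation changes were -0.21 (adjusted p = 0.61) in STING WT and 0.31 (adjusted p = 0.43) in STING KO cells. IL33, a nuclear alarmin of epithelia, never exceeded 0.28 TPM, and it was listed at 0 in replicate 3 of both irradiated groups, so no fold change was given for it.

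IL1R1, the signalling receptor, was at 1.36, 0.92 and 1.22 TPM in unirradiated STING WT and 1.497, 1.41 and 1.87 TPM in unirradiated STING KO libraries. It was at 1.77, 1.76 and 1.36 TPM in irradiated STING WT and at 2.41, 1.80 and 2.46 TPM in irradiated STING KO libraries. STING KO libraries were above STING WT libraries in both conditions without overlap, but the fitted differences of 0.26 (95% confidence interval -0.03 to 0.55, adjusted p = 0.42) and 0.29 (-0.0052 to 0.58, adjusted p = 0.29) did not pass. The radiation changes of 0.28 (adjusted p = 0.30) in STING WT and 0.31 (adjusted p = 0.25) in STING KO cells did not pass either. IL1R1 shares exonic sequence with the antisense gene IL1R1-AS1, and no strand setting is given in the sources used here, so their reads cannot be told apart.

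IL1RAP (chr3:190514051-190659750, plus strand), the accessory chain shared with the IL-33 and IL-36 receptors, was the most abundant receptor chain, at 21.1, 21.4 and 21.0 TPM in unirradiated STING WT libraries and 17.0, 19.5 and 20.01 TPM in irradiated STING WT libraries. The STING KO libraries fell far apart, at 19.0, 20.4 and 37.8 TPM without and 31.5, 31.1 and 16.6 TPM with radiation. Their spread (SD 10.5 and 8.50 TPM) was larger than that of the unirradiated (SD 0.217 TPM) and irradiated STING WT libraries (SD 1.59 TPM). Scatter of this kind was not limited to STING KO cells: MYD88 was at 17.3, 6.77 and 13.3 TPM in unirradiated STING WT libraries. The KO differences of IL1RAP, 0.20 (95% confidence interval -0.40 to 0.80, adjusted p = 0.80) and 0.42 (-0.18 to 1.02, adjusted p = 0.48), did not pass. Radiation changes were -0.17 (adjusted p = 0.81) in STING WT and 0.05 (adjusted p = 0.95) in STING KO cells. IL1RAP also shares exonic sequence with the long non-coding gene AC108747.1 on the same strand.

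IL1R2, the decoy receptor, showed the largest fold changes among the tested members. It was listed at 0.58, 0.42 and 0.85 TPM in unirradiated STING WT and at 1.53, 1.99 and 2.12 TPM in unirradiated STING KO libraries. After radiation it was at 3.66, 4.17 and 2.84 TPM in STING WT and at 6.94, 5.60 and 5.25 TPM in STING KO libraries. The 4 groups were separated from each other, in the order unirradiated STING WT, unirradiated STING KO, irradiated STING WT, irradiated STING KO. Means of the groups were 0.618 ± 0.22, 1.88 ± 0.31, 3.56 ± 0.67 and 5.93 ± 0.89 TPM (SD, n = 3). Radiation raised IL1R2 5.76-fold by the ratio of means in STING WT cells, 1.49 on the log2(TPM + 1) scale (SE 0.15, adjusted p = 7.2e-04), and 3.15-fold in STING KO cells, 1.26 on that scale (SE 0.15, adjusted p = 0.0018). Both passed in every alternative in which IL1R2 was tested. In unirradiated cells the STING KO mean was 3.04 times that of STING WT (0.84 on the log2 scale, SE 0.15, adjusted p = 0.020). That call was lost without replicates 1 or 2 of the STING WT cells or replicates 2 or 3 of the STING KO cells (adjusted p 0.068 to 0.092). It was also lost with no filter on low values (adjusted p = 0.065), with a replicate block (0.069) and with only the libraries compared (0.10). IL1R2 was under 1 TPM in every unirradiated STING WT library, so it was tested only through the groups where it was higher. In irradiated cells the ratio was 1.67 (log2 fold change 0.61, 95% confidence interval 0.27 to 0.95, adjusted p = 0.061) and did not pass. Because the values are near the added 1 TPM, these log2 fold changes understate the ratios: with 0.1 TPM added, the radiation effect was 2.38 in STING WT and 1.61 in STING KO cells.

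The balance of decoy to signalling receptor, again a measure chosen after the values were seen, was compared in the same way. The ratio of IL1R2 to IL1R1 was 0.53 ± 0.15 in unirradiated STING WT, 1.19 ± 0.20 in unirradiated STING KO, 2.17 ± 0.17 in irradiated STING WT and 2.71 ± 0.51 in irradiated STING KO cells (SD, n = 3). It did not overlap between genotypes without radiation or between unirradiated and irradiated cells of either genotype (exact permutation p = 0.1 in each, the smallest possible), and it overlapped between genotypes after radiation (exact permutation p = 0.2).

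**Figure D3:**
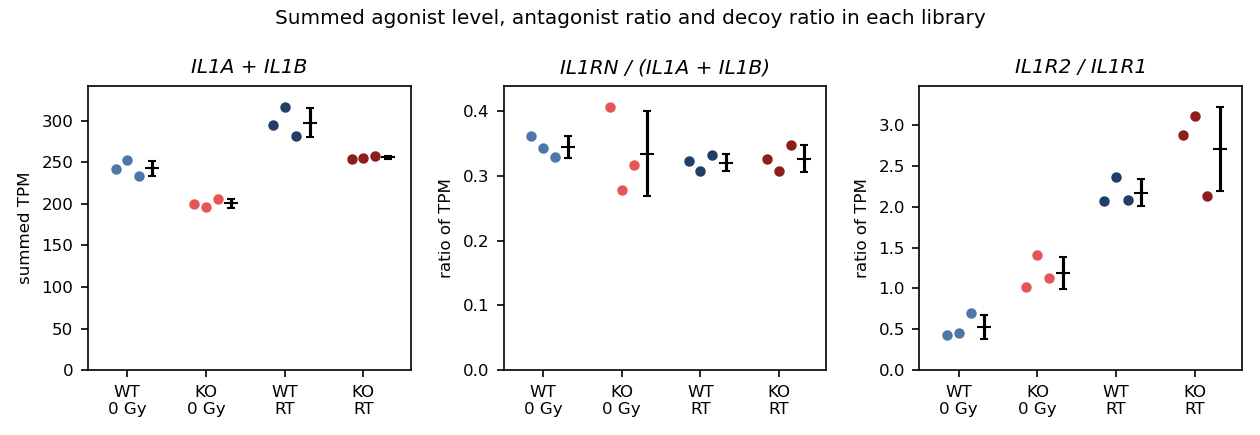
Ratios within each library (vertical axes, no unit) of IL1RN to the sum of IL1A and IL1B, and of IL1R2 to IL1R1, together with the sum of IL1A and IL1B (TPM), in the 4 groups. Points are libraries and bars are the mean ± SD of 3 libraries. The antagonist ratio stayed between 0.279 and 0.407 in all groups, and the decoy ratio went from 0.53 to 2.71.

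The third question was whether the response to radiation depended on STING. In the test of the difference between the radiation effects (STING KO minus STING WT), 0 of the 8 members passed by limma and 0 had an unadjusted p under 0.05, against 0.0188% of all genes past the threshold. For IL1B the difference was 0.10 (95% confidence interval -0.083 to 0.28) and for IL1A it was -0.03 (-0.22 to 0.16). For IL1R2 it was -0.23 (-0.71 to 0.25, adjusted p = 0.90). For IL36G it was 0.52 (-0.054 to 1.09, adjusted p = 0.76). The value of IL1R2 depended on the added TPM: with 0.1 in place of 1 it was -0.77 (adjusted p = 0.77), outside the interval given above, and that of IL36G was 0.68 (adjusted p = 0.78). On the log2(TPM + 1) scale both bounds for IL1A, IL1B and IL1R2 were smaller in size than the estimated radiation effect in either genotype, and for the other 5 members at least 1 bound was larger than the radiation effects. The radiation effects have intervals of their own, such as 0.093 to 0.36 for IL1A in STING KO cells. This comparison therefore cannot decide whether the response of these members depended on STING.

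Other genes of the pathway were taken from lists put together by role, with earlier results of these data known. With radiation 3.74% of all tested genes passed in STING WT and 3.69% in STING KO cells. Among 13 other ligands and receptors of the family, 7 were tested, and 1 passed with radiation in each genotype. This was IL1RL1, the receptor for IL-33, which rose from 3.99, 3.66 and 2.98 TPM to 10.7, 10.6 and 9.84 TPM in STING WT cells (change of 1.33 on the log2 scale, SE 0.16, adjusted p = 0.0016) and from 4.10, 4.19 and 4.54 TPM to 14.7, 10.8 and 18.8 TPM in STING KO cells (1.55, SE 0.16, adjusted p = 7.3e-04). No tested gene of this list passed in either KO comparison by limma, with 0 and 2 genes at an unadjusted p under 0.05. Of 20 receptor signalling genes, all tested, 1 passed with radiation in STING WT cells and 0 in STING KO cells, near the shares above. The 1 was the kinase IRAK2, which rose (0.64, adjusted p = 0.034). Its call was lost in 7 fits that left out a library, among them those without any 1 of the 6 STING WT libraries (adjusted p 0.052 to 0.11). The median of that list was 0.02 in STING WT and 0.02 in STING KO cells, as it was for all tested genes. Of 23 genes of processing and release, 13 were tested, and CAPN1, a calpain that cuts the IL-1 alpha precursor, fell with radiation in STING WT (-0.26, adjusted p = 0.011) and STING KO cells (-0.28, adjusted p = 0.0071). Both calls were lost with only the libraries compared (adjusted p = 0.053 and 0.076). CASP1, which cuts IL-1 beta and IL-18, was listed at 14.9 to 29.9 TPM over all libraries and passed in no comparison. In STING KO cells it was at 24.0 to 29.9 TPM without and 16.0 to 17.6 TPM with radiation, without overlap, as for 24.3% of all tested genes. In STING WT cells its ranges of 17.3 to 28.0 TPM without and 14.9 to 20.1 TPM with radiation overlapped.

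Of 30 genes that IL-1 is known to induce, 22 were tested. With radiation 8 rose and 1 fell in STING WT cells, where 3.74% of all tested genes passed, and 6 rose and 1 fell in STING KO cells, where 3.69% did. The median log2 fold changes of the list were 0.40 and 0.26, beside 0.02 in each for all tested genes. IL6, a cytokine of the acute phase response, was at 1.54, 1.79 and 2.00 TPM before and 7.03, 8.21 and 7.74 TPM after radiation in STING WT cells (1.64, SE 0.18, adjusted p = 0.0011). It was at 0.88, 2.38 and 1.46 TPM before and 3.03, 3.19 and 2.97 TPM after radiation in STING KO cells (0.70, adjusted p = 0.060), which did not pass. The neutrophil chemokine CXCL8 rose by 1.20 (adjusted p = 0.0016) in STING WT and by 0.72 (adjusted p = 0.023) in STING KO cells, the latter lost in 5 fits that left out 1 of 5 of the 6 STING KO libraries (adjusted p 0.051 to 0.082). The collagenase MMP1 rose in both genotypes, by 1.14 and 0.97, and so did the early response gene IER3, by 0.75 and 0.48, and the NF-kB inhibitor TNFAIP3, by 0.69 and 0.54. The TNFAIP3 call in STING KO cells was lost with only the libraries compared (adjusted p = 0.076). ICAM1, an adhesion molecule for leukocytes, rose in both genotypes, by 0.35 in STING KO cells (adjusted p = 0.0035), PLAUR, the urokinase receptor, rose in STING WT cells, and the prostaglandin E synthase PTGES was the gene of the list that fell in each genotype. The stromelysin MMP3 rose in STING KO cells by 0.81 (adjusted p = 0.0094), from levels under 1 TPM. MMP3 reached 1 TPM only in irradiated STING KO libraries, so it was tested only through the group where it was high. It was counted among the 6 genes that rose in STING KO cells. With 0.1 TPM added in place of 1 its change was 1.87 and did not pass (adjusted p = 0.060), nor did it pass with only the libraries compared (adjusted p = 0.064). PTGS2, the inducible cyclooxygenase, rose by 0.63 in STING WT cells (adjusted p = 0.021), a call lost in 5 fits that left out a STING WT library (adjusted p 0.051 to 0.082).

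In the KO comparisons 2 of the IL-1 induced genes were higher and 1 lower in unirradiated cells, and 2 were higher and 3 lower in irradiated cells, where 1.73% and 3.59% of all tested genes passed. MMP1 and PTGES were higher in STING KO cells, MMP1 by 0.88 (adjusted p = 0.0011) without and 0.71 (adjusted p = 0.0029) with radiation, and PTGES by 0.43 (adjusted p = 0.0011) and 0.33 (adjusted p = 0.0044). PLAUR was lower by limma in both, at -0.79 (adjusted p = 0.011; 0.052 without replicate 2 of the unirradiated STING KO cells and 0.068 with only the libraries compared) and -0.93 (adjusted p = 0.0027). IL6 (-1.09, adjusted p = 0.0075) and PTGS2 (-0.55, adjusted p = 0.033) were lower after radiation, and the PTGS2 call was lost in 6 fits that left out 1 library (adjusted p 0.051 to 0.12). No gene of any of the 4 lists passed in the test of the difference between the radiation effects by limma, and 4 of the IL-1 induced genes and 1 of the other ligands and receptors had an unadjusted p under 0.05.

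**Figure D4:**
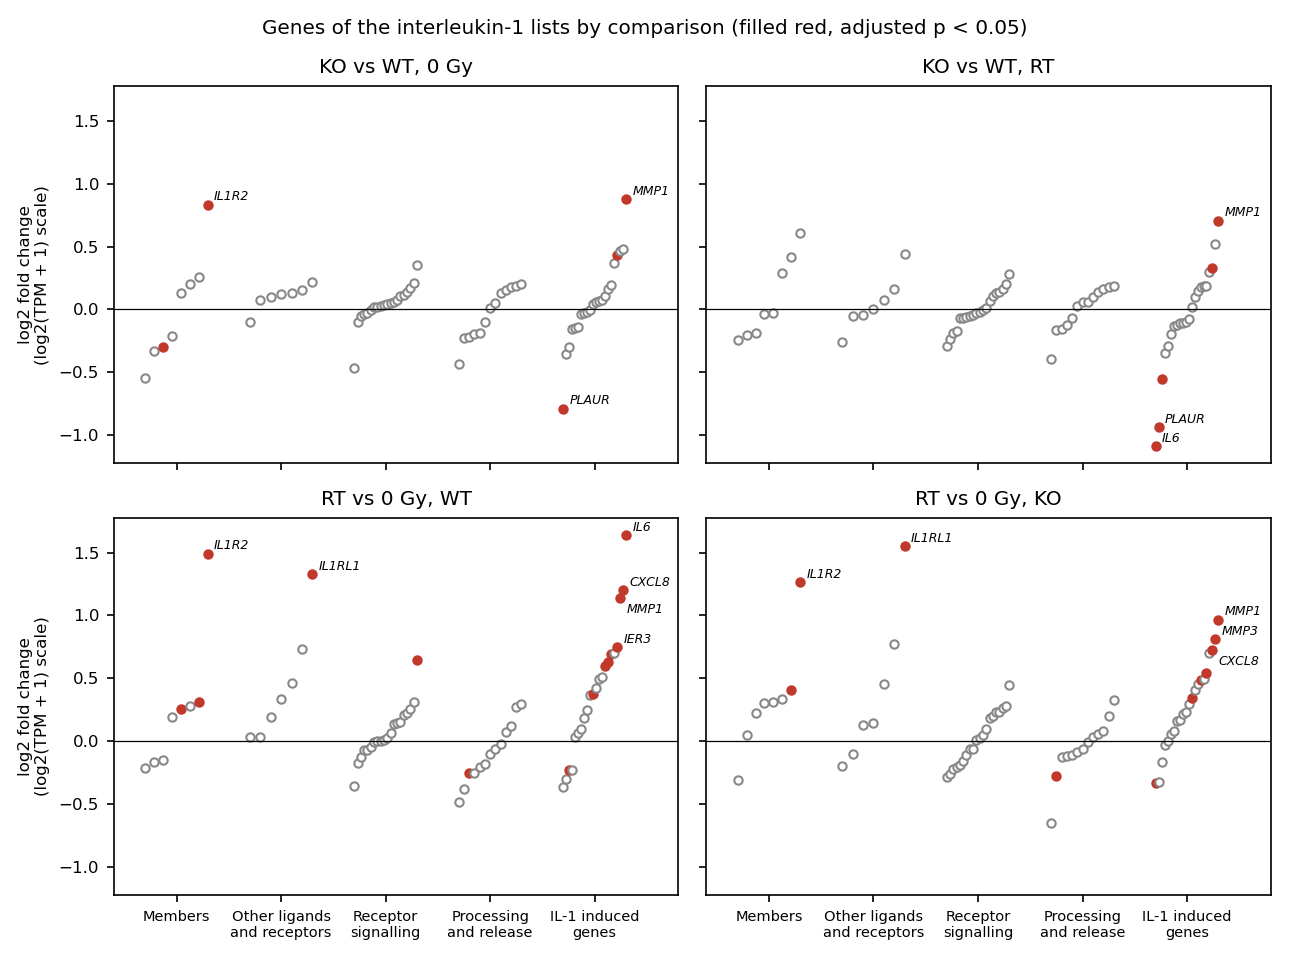
Log2 fold change (vertical axes, log2(TPM + 1) scale) of every tested member and every tested gene of the 4 pathway lists in 4 comparisons. Points are genes, ordered by value within a list and filled where the adjusted p was under 0.05, and the line marks 0. With radiation IL-1 induced genes lay mostly above 0, with medians of 0.40 in STING WT and 0.26 in STING KO cells, while the receptor signalling genes were centred near 0.

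Over the 12 libraries IL1A and IL1B varied together (Pearson's r of log2(TPM + 1) 0.91), as did IL1B and IL1RN (0.85) and IL1R1 and IL1R2 (0.86). The libraries share 4 group means, and with those removed the values were 0.13, 0.47 and 0.56. IL1RN and IL18 ran in opposite directions both before (-0.70) and after (-0.72) the group means were removed. Among all tested genes those with patterns most like IL1B were CDK12, a transcriptional kinase (r = 0.978), GPRIN1 (0.974) and AREG, the EGFR ligand amphiregulin (0.973). For IL1A they were EAF1 (0.960), the epithelial transcription factor OVOL1 (0.957) and AREG (0.952), and for IL1R2 they were IGFL1 (0.971), MMP1 (0.956) and VPS18 (0.950). All of these are descriptions over 12 libraries with the same group structure.

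Of the 12 squamous epithelial markers, 1 was higher and 1 lower in unirradiated STING KO than STING WT cells by limma, and 2 were lower in irradiated cells. With radiation 1 rose and 1 fell in STING WT cells, and 1 rose and 2 fell in STING KO cells. Over all tested genes 1.73%, 3.59%, 3.74% and 3.69% passed in these comparisons. Marker genes of other cell types moved in places as well. CD14, a monocyte marker, was higher in unirradiated STING KO than STING WT cells (0.40, adjusted p = 0.043), while the summed level of the 10 myeloid markers was 4.15 to 4.61 TPM in STING WT and 4.35 to 5.84 TPM in STING KO cells, and IL1B was lower in the latter. CD14 made up most of that sum. ITGAM, the only other myeloid marker tested, had the lower mean in unirradiated STING KO cells (0.782 against 0.935 TPM in STING WT), and its libraries overlapped. CDH5, an endothelial cadherin, rose with radiation in STING WT (0.61, adjusted p = 0.029) and STING KO cells (0.61, adjusted p = 0.026), beside the rise of IL1B and IL1R2. The sum of the 6 endothelial markers was 11.5 to 13.9, 13.0 to 15.9, 18.3 to 18.7 and 19.9 to 23.9 TPM in unirradiated STING WT, unirradiated STING KO, irradiated STING WT and irradiated STING KO libraries. VWF, the other endothelial marker above 1 TPM, was at 2.60 to 3.00, 3.17 to 3.55, 3.28 to 3.58 and 4.05 to 4.49 TPM in the same order, without overlap in any of the 4 comparisons, and passed in none (adjusted p 0.087 to 0.37 by limma). The other 4 endothelial markers stayed under 1 TPM. The part of these genes in the results was not tested.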

How the data were processed

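The authors deposited gene-level TPM for 12 libraries in 1 table. The authors' processing notes name HISAT2, StringTie, DESeq2 and hg38; versions and strand setting are not given in the sources used here. Each library sums to 1000000 TPM, so depth is unknown and the spread between libraries is the only measure of error. Columns were matched to the sample titles by dose and replicate number; the column name with the non-targeting guide was taken as STING WT and the other as STING KO, with TMEM173 as a check.

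log2(TPM + 1) was fitted for the 15973 of 58288 genes with at least 1 TPM in 3 or more libraries, using 4 group means in limma 3.58.1 (R 4.3.3, eBayes with trend, 8 residual degrees of freedom) and Benjamini-Hochberg adjustment over all tested genes with a threshold of 0.05. The authors used DESeq2, a count method, whereas only TPM were used here. The code was tested on simulated data. Single values were compared by two-sided exact permutation tests. No pairing by replicate number was seen in the values (correlations of same-numbered deviations -0.060 to 0.064, 18 pairs), so the main fit used none. Named genes were the 9 members, TMEM173 and list genes past the threshold (up to 6 per list and comparison). The 3 genes most correlated with each member that passed were named as well. CASP1, MYD88, AIF1, TYROBP, CD14, ITGAM, COL1A1, CDH5, VWF, KRT5, AIM2 and IL37 were named after their values were seen. So were values of a list gene in comparisons where it did not pass. GSDME was listed under its older symbol DFNA5. Members and lists were chosen with earlier results of these data known. Gene positions are from GENCODE 29 on GRCh38, promoter sequences from RefSeq on GRCh38.p14. Alternatives were each library left out, a replicate block, a fit to only the libraries compared, a pseudocount of 0.1, no filter or one at a mean of 5 TPM, scaling by median-of-ratios factors or quantiles, and moderation without a trend.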

Additional observations from a re-analysis of the deposited data

How the results depend on the processing

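The 7 member tests that passed were each repeated under up to 20 alternatives: 100 of these repeats passed and 37 did not, with no change of sign. Repeats of the member tests that did not pass kept direction and call 613 times, passed 6 times and changed sign 21 times. IL1B and IL1R2 with radiation in STING KO cells, and IL1R2 with radiation in STING WT cells, passed wherever they were tested. The number of members past the threshold in unirradiated STING KO against WT cells (2) was 1 with no filter, 1 with a mean TPM of at least 5 (5 members tested), 1 without the trend, 0 with a replicate block and 0 with only the libraries compared. In irradiated cells (0) it was 1 with a mean TPM of at least 5, IL1A (adjusted p = 0.045), and 1 with quantile normalization, IL1R2 (adjusted p = 0.047). With radiation in STING WT cells (3) it was 1 with a replicate block and 1 with only the libraries compared. With radiation in STING KO cells (2) it was 1 with a mean TPM of at least 5, at which IL1R2 was not tested. For the difference between the radiation effects it was 0 under every alternative. IL1A with radiation in STING WT cells was also lost with no filter, with median-of-ratios factors and without the trend. The cause of these changes was not tested, apart from the fewer libraries or members where the setting itself removes them.

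When 1 library was left out, the counts ran from 0 to 2, 0 to 1, 1 to 3 and 2 to 3 in the same order of comparisons. Members not past the threshold whose sign changed then were IL18 for the KO effect in unirradiated (-0.044 to 0.28) and irradiated cells (-0.14 to 0.041), IL36G for the KO effect in irradiated cells (-0.17 to 0.053), and IL1RAP for the KO effect in unirradiated cells (-0.10 to 0.38) and for radiation in STING KO cells (-0.13 to 0.35). For the difference between the radiation effects they were IL1A (-0.076 to 0.027), IL18 (-0.31 to 0.011) and IL1R1 (-0.046 to 0.13; -0.0044 with a pseudocount of 0.1).

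No pairing by replicate number was seen in the values (4 of 12 libraries correlated best with their own number). This does not show that same-numbered libraries were prepared apart. With the replicate block, calls over all genes were 211, 378, 315 and 359 in place of 276, 573, 597 and 590, and 1 in place of 3 for the difference between the radiation effects. With only the libraries compared they were 103, 252, 166 and 195. For that difference they were 7 with no filter and 1 without the trend. TPM keep no depth, so what depth limits could not be examined.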

Other observations

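AIM2, a cytosolic DNA sensor that forms an inflammasome and stands on the list of processing and release, was too low to be tested and was picked after its values were seen. It was at 0.62, 0.53 and 0.15 TPM in unirradiated STING WT and at 0.70, 0.42 and 0.36 TPM in irradiated STING WT libraries, and it was listed at 0 in all 6 STING KO libraries. No fold change was given for it, and the share of all genes with such a pattern was not worked out. Because TPM keep no read depth, a value listed at 0 cannot be told apart from low expression that was missed. IL37, an anti-inflammatory member of the family likewise picked after its values were seen, was among the tested genes. It was at 0 to 0.38 TPM in unirradiated STING WT, 0 to 0.60 in unirradiated STING KO, 0.62 to 1.22 in irradiated STING WT and 0.67 to 1.73 in irradiated STING KO libraries. Libraries did not overlap with radiation in either genotype, as for 24.8% of all tested genes in STING WT and 24.3% in STING KO cells. IL37 reached 1 TPM only in irradiated libraries, so it was tested only through the groups where it was high. It did not pass by limma: the radiation change of IL37 was 0.73 (95% confidence interval 0.21 to 1.25, adjusted p = 0.13) in STING WT and 0.77 (0.25 to 1.29, adjusted p = 0.11) in STING KO cells.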
